A study of Arabidopsis thaliana with 12 samples.

Results

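Glutaredoxins are small oxidoreductases that use glutathione to reduce disulphides and mixed disulphides with glutathione on other proteins. Land plants have the widely shared CPYC- and CGFS-type proteins, named after their active sites, and a CC-type class of their own. CPYC-type glutaredoxins are mainly reductases, CGFS-type proteins bind and pass on iron-sulphur clusters, and several CC-type proteins bind TGA transcription factors in the nucleus. CC-type genes of Arabidopsis are known from flower development, salicylate and jasmonate signalling, and the response to nitrate in leaf and root.

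The family was taken as every row of the deposited table whose gene symbol is GRXC or GRXS followed by a number, which gave 27 of 34218 genes. Of these, 20 were CC-type (GRXC6 to GRXC14 and GRXS1 to GRXS11), 3 were CPYC-type (GRXC1, GRXC4 and GRXC5) and 4 were CGFS-type (GRXS14 to GRXS17). The reference coding sequence of all 27 held the active-site codons of the class, where the CPYC-type was allowed any second codon. The family was selected on the measured levels of GRXS7 and GRXS10, which were very low in the untreated TaF5H1 line. The contrast of the untreated line with untreated wild type is therefore given as a description with no test. The same holds for every value of GRXS3, GRXS4, GRXS5, GRXS7, GRXS8 and GRXS10 that rests on the untreated line.

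Messenger RNA was sequenced in 12 libraries labelled as leaves of Arabidopsis thaliana seedlings aged 14 days. One genotype was wild-type Col-0. The other, here called the line, carried pTaF5H1:TaF5H1, a wheat ferulate 5-hydroxylase gene behind its own wheat promoter. The labels do not state how many transformants the line stands for. Both were either left in nutrient solution (untreated) or given 200 mM NaCl (salt), for 6 h, with 3 biological replicates in each of the 4 groups. The stated aim of the series was to learn how the wheat gene affects cell wall synthesis and salt tolerance.

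Library totals were between 17173618 and 21651124 counts. One library, replicate 1 of the salt-treated line, correlated less well with its group (r over genes of 0.931 and 0.935) than replicates did elsewhere, at 0.971 to 0.989. The 6 leaf markers were high in every library, but their summed level was 17883 to 21326 FPKM (fragments per kilobase of exon, scaled by the library total) in untreated wild type, 14895 to 16123 in the untreated line and 5495 to 5788 in salt-treated wild type. It was 3150, 784 and 777 FPKM in replicates 1, 2 and 3 of the salt-treated line. The 7 root markers summed to at most 1.88 FPKM, and CASP1 and EXPA7 were at 0 in all groups. The 4 flower markers summed to 0.52 to 6.4 FPKM and the 3 shoot meristem markers to at most 3.31 FPKM, with CLV3 at 0 in all groups. The part of these shifts in the results was not tested. In whole leaves, fewer cells of a type and less RNA per cell cannot be told apart.

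A row of 5 close relatives lies on chromosome 4. GRXS8, GRXS7, GRXS4, GRXS5 and GRXS3 follow each other on the plus strand between chr4:8925571 and 8938124 (TAIR10), each with 1 coding exon. Their coding sequences were 88.3 to 93.2% identical (309 aligned bases). The next most alike pair among the 20 CC-type genes, GRXC13 and GRXC14, was at 84.5%. The coding bases around the active site are printed here to show how alike the neighbours are beside GRXS10 on chromosome 3, GRXC9 on chromosome 1 and one member of each other class. The 4 active-site codons are in capitals, and the sequences are from the RefSeq genome TAIR10.1. Its gene coordinates equal those of the table for 32531 of the 32547 loci compared.
GRXS8 (CC-type, chr4:8925970-8926017, plus strand): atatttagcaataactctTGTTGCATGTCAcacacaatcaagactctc
GRXS7 (CC-type, chr4:8929279-8929326, plus strand): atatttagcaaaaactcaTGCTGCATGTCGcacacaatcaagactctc
GRXS4 (CC-type, chr4:8931855-8931902, plus strand): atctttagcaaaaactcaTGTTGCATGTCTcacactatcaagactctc
GRXS5 (CC-type, chr4:8934486-8934533, plus strand): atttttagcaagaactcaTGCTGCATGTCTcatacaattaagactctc
GRXS3 (CC-type, chr4:8937587-8937634, plus strand): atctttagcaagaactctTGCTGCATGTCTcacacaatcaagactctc
GRXS10 (CC-type, chr3:7557786-7557833, minus strand): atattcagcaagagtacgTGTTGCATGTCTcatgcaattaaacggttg
GRXC9 (CC-type, chr1:10013865-10013912, minus strand): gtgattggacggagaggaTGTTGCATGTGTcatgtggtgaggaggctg
GRXC1 (CPYC-type, chr5:25286448-25287102, plus strand): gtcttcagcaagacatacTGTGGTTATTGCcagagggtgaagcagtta
GRXS14 (CGFS-type, chr3:20342054-20342101, minus strand): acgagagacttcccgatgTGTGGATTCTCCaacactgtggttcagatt
The GRXC1 stretch is joined across an intron. Over the neighbours' exons the longest identical run between any 2 of the 5 genes was 38 to 71 bases. Of all 50-base windows of a neighbour's exons, 0.61% (GRXS4) to 4.74% (GRXS3) occurred again elsewhere in the nuclear genome. No window of 100 or 150 bases did. How the authors counted reads that match several genes is not given in the sources used here, so the split of counts among the 5 genes is uncertain, and their sum is given as well.

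**Figure D1:**
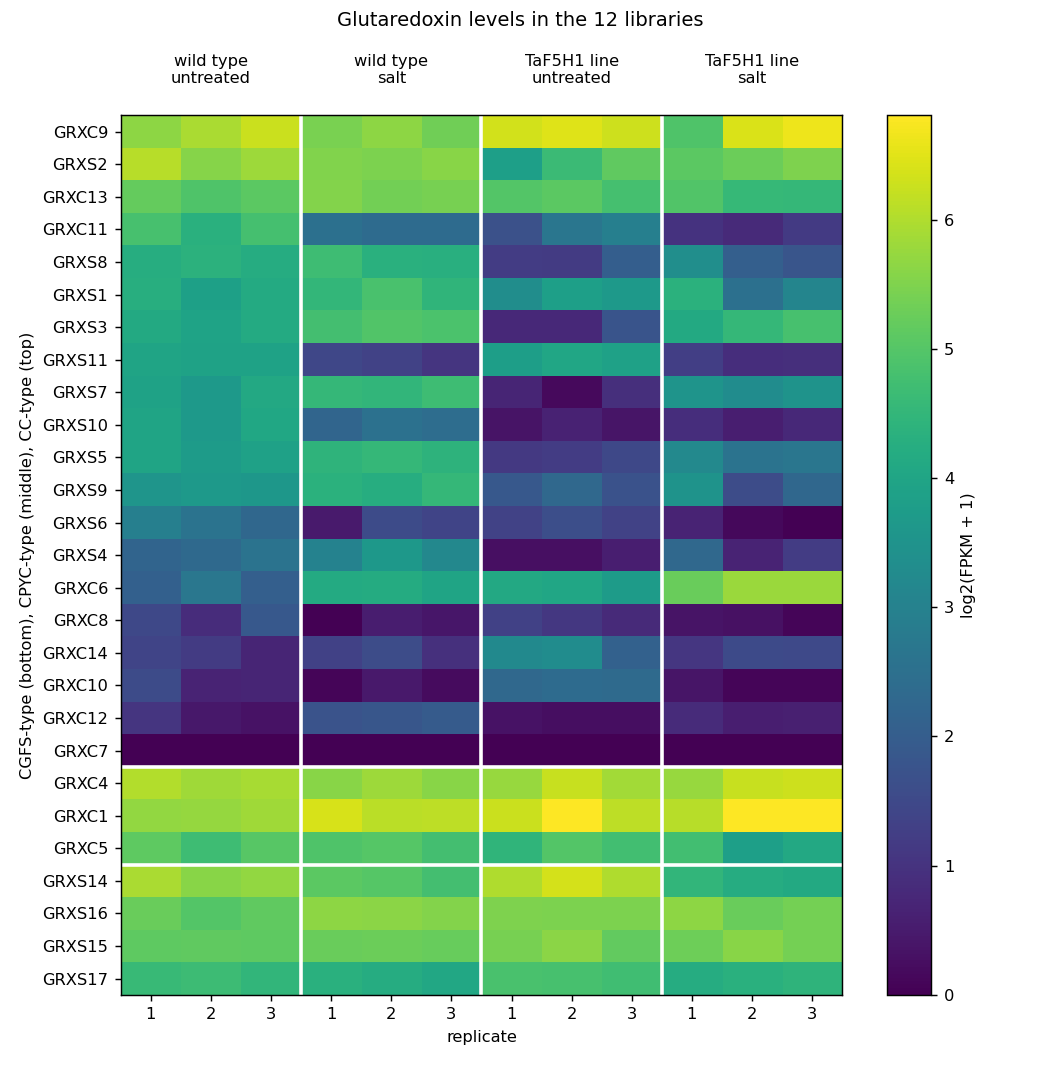
Heat map of log2(FPKM + 1) for the 27 glutaredoxin genes (rows, by class, each class sorted by level) in the 12 libraries (columns, 3 replicates per group). The CPYC- and CGFS-type rows stay bright in every library, while many CC-type rows are dark in 1 or more groups, and GRXC7 is at 0 throughout.

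CC-type genes included the members of lowest level, and their median was below that of the others in every group. In untreated wild type their group means ran from 0 FPKM (GRXC7) to 61.8 ± 13 FPKM (GRXC9), with a median over the 20 genes of 13.8. The 7 CPYC- and CGFS-type genes ran from 22.9 ± 1.49 (GRXS17) to 59.9 ± 3.54 FPKM (GRXC4), with a median of 34.0. In the untreated line the CC-type median was 2.42 FPKM and that of the other 7 genes was 43.6. Salt-treated wild type had medians of 12.6 and 37.2 FPKM, and the salt-treated line of 3.46 and 42.3 FPKM, in the same order.

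The untreated line differed from untreated wild type in CC-type genes. On the log2 scale, 10 members were at least 2-fold lower and 3 at least 2-fold higher, and all 13 were CC-type. Of the 17038 genes with a mean of at least 1 FPKM, 5.09% were at least 2-fold lower and 5.51% at least 2-fold higher. The 7 other members lay between -0.32 (GRXC5) and 0.59 (GRXC1). The 10 lower genes were the 5 neighbours, GRXS10, GRXC11, GRXS9, GRXS6 and GRXS2, and the 3 higher ones were GRXC6, GRXC10 and GRXC14. Since this contrast chose the family, nothing is read from these counts.

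GRXS7 and GRXS10 were the lowest against wild type. GRXS7 (AT4G15670), a CC-type gene of the cluster, was at 14.2, 11.6 and 16.3 FPKM in untreated wild type and at 0.63, 0.13 and 0.89 in the untreated line, from 10, 2 and 14 counts. Its mean was 25.5-fold lower in the line. GRXS10 (AT3G21460, chromosome 3, 7557297 to 7557969, minus strand), also CC-type, was at 14.7, 11.6 and 15.8 FPKM in untreated wild type against 0.29, 0.58 and 0.30 FPKM, from 4, 8 and 4 counts, and its mean was 35.9-fold lower. The groups did not overlap for either gene, from which nothing is read, since these values chose the family.

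The 4 other neighbours were low in the same 3 libraries. GRXS4 (AT4G15680) was at 3.58, 4.04 and 5.0 FPKM in untreated wild type and 0.21, 0.21 and 0.50 in the untreated line, a 13.7-fold lower mean. GRXS3 (AT4G15700) was at 16.7, 14.6 and 16.9 against 0.71, 0.71 and 2.41 FPKM, 12.6-fold lower. For both genes replicate 3 was the highest of the untreated line. GRXS8 (AT4G15660) was at 18, 19.6 and 17.7 against 1.32, 1.26 and 3.08 FPKM, 9.77-fold lower. GRXS5 (AT4G15690) was at 14.7, 12.2 and 13.8 against 1.19, 1.33 and 1.80 FPKM, 9.42-fold lower. In all 4 the highest library of the untreated line was below the lowest of untreated wild type. Members with small differences, such as GRXS17 (1.17-fold) and GRXS15 (1.23-fold), did not overlap in this contrast either. The share of all genes without overlap was not counted, so nothing is read from this. Summed over the 5 neighbours, untreated wild type had 995, 965 and 1132 counts and the untreated line 65, 58 and 140, a log2 difference of -3.68 ± 0.28 (SE, n = 3 libraries per group).

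Salt moved the cluster and GRXS10 in opposite directions in wild type. Over the family, 9 members rose, 6 fell and 9 were not called among the 24 that passed a filter of a mean of 1 FPKM over the 12 libraries. Calls are at an adjusted p under 0.05 in edgeR's quasi-likelihood test, with Benjamini-Hochberg adjustment over all 17038 genes. Among all genes 53.8% were called, 27.1% up and 26.7% down, so a called share of 62.5% is near the background. Of the 17 CC-type genes tested 6 rose and 5 fell, with fold changes from -3.08 to 2.25 on the log2 scale. Of the 7 others 3 rose and 1 fell, with a range of -0.62 to 0.69. The median log2 fold change was 0.53 for the CC-type genes tested, 0.15 for the 7 others and -0.02 for all genes. FPKM scales by the library total and the fitted fold changes by edgeR's TMM factors, which differ, and with library totals alone the median of all genes moved to -0.22.

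Of the neighbours, 4 rose with salt in wild type. GRXS3 went to 26.3, 30.1 and 28.5 FPKM (1.02 ± 0.30, edgeR adjusted p = 0.013) and GRXS5 to 20.6, 22.3 and 20.02 (0.83 ± 0.21, edgeR adjusted p = 0.0062). GRXS7 reached 22.3, 21.2 and 24.8 FPKM (0.89 ± 0.27, edgeR adjusted p = 0.015). All 3 salt libraries lay above all 3 untreated ones for each of these genes. GRXS4 went to 7.15, 11.5 and 8.10 FPKM (1.28 ± 0.50, edgeR adjusted p = 0.047), also with no overlap. GRXS8 was at 24.7, 19.2 and 18.7 FPKM, which overlapped its untreated values (0.38 ± 0.42, edgeR adjusted p = 0.47). Their summed counts were 1652, 1705 and 1453 under salt, and the sum rose by 0.79 ± 0.24 (edgeR adjusted p = 0.017). GRXS4 was no longer called when any library outside the salt-treated line was left out (9 cases, highest edgeR adjusted p 0.14), nor was GRXS7 without replicate 2 of untreated wild type (edgeR adjusted p = 0.065). With limma on log2(FPKM + 0.1) the calls of GRXS3, GRXS4 and GRXS7 ended (adjusted p = 0.086, 0.11 and 0.17), and GRXS4 also missed the threshold with library totals alone (edgeR adjusted p = 0.077).

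GRXS10 fell with salt in wild type, from the values above to 3.65, 4.78 and 4.38 FPKM (-1.52 ± 0.26, edgeR adjusted p = 0.00048). The strongest decrease of the 24 was that of GRXS11 (AT1G06830, chromosome 1, 2097106 to 2097655, plus strand), known as CEPD1, a CC-type polypeptide that travels from shoot to root and raises nitrate uptake. It went from 14.8, 14.2 and 14.2 FPKM to 1.75, 1.55 and 1.07 (-3.08 ± 0.25, edgeR adjusted p = 1.8e-06). GRXC11 (AT3G62950, chromosome 3, 23266227 to 23267090, plus strand) fell from 27.4, 18.9 and 26.9 to 4.69, 4.16 and 4.21 FPKM (-2.29 ± 0.33, edgeR adjusted p = 0.00012). In these 3 genes no salt library reached the lowest untreated one. GRXS6 (AT3G62930, chromosome 3, 23261442 to 23261927, minus strand), which lies near GRXC11, fell from 6.70, 4.98 and 3.80 to 0.40, 1.95 and 1.65 FPKM (-1.75 ± 0.59, edgeR adjusted p = 0.026), from 4, 20 and 15 counts under salt. It missed the threshold without replicate 1 or 2 of untreated wild type, or replicate 1 of salt-treated wild type (edgeR adjusted p = 0.091, 0.051 and 0.091).

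GRXC6 (AT4G33040, chromosome 4, 15940228 to 15941493, minus strand), a CC-type gene away from the cluster, had the largest increase of the 24 members tested. It went from 3.25, 5.45 and 3.15 to 17.02, 17.1 and 14.8 FPKM (2.25 ± 0.22, edgeR adjusted p = 7.3e-06), with no overlap. GRXS9 (AT2G30540, chromosome 2, 13011105 to 13012043, minus strand), a relative of CEPD1 known as CEPDL2, was at 10.7, 11.8 and 11.2 FPKM without salt and 19.4, 17.8 and 22.2 with it (1.01 ± 0.43, edgeR adjusted p = 0.066). GRXS1 (AT1G03020, chromosome 1, 697919 to 698591, minus strand) was at 18.2, 13.7 and 16.98 FPKM without salt and 21.9, 27.9 and 21 FPKM (0.73 ± 0.40, edgeR adjusted p = 0.14). Neither was called although the groups did not overlap, and both varied widely among the libraries of the salt-treated line, which share the estimate of spread. With wild type alone in the fit, both were called (edgeR adjusted p = 3.8e-05 for GRXS9 and 0.0032 for GRXS1), as was GRXS8 (0.38 ± 0.13, edgeR adjusted p = 0.027).

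The remaining calls for salt in wild type were smaller or in genes of low level. GRXC10 fell by 2.21 ± 0.70 (edgeR adjusted p = 0.019) from a mean of 1.06 FPKM to 0.19, and it had passed the filter on level through the untreated line alone. It was not called without replicate 1 of untreated wild type (-1.41, edgeR adjusted p = 0.11) or without replicate 1 or 3 of salt-treated wild type. GRXC13, known as CEPD2, rose by 0.57 ± 0.16 (edgeR adjusted p = 0.0091). Among the CPYC-type genes the cytosolic GRXC1 rose by 0.66 ± 0.21 (edgeR adjusted p = 0.018). Among the CGFS-type genes GRXS16 of the chloroplast rose by 0.69 ± 0.13 (edgeR adjusted p = 0.001), GRXS15 of the mitochondrion rose by 0.34 ± 0.13 (edgeR adjusted p = 0.044) and GRXS14 of the chloroplast fell by 0.62 ± 0.17 (edgeR adjusted p = 0.0084). With library totals as the scaling, GRXC1 and GRXS15 were not called (edgeR adjusted p = 0.087 and 0.4). The calls of those 2 genes and of GRXC13 were lost with limma on log2(FPKM + 0.1) (adjusted p = 0.11, 0.42 and 0.055). GRXC1 was not called in 2 leave-outs, replicate 2 of untreated and replicate 1 of salt-treated wild type (edgeR adjusted p = 0.051 and 0.061), and GRXS15 in 7 (highest edgeR adjusted p 0.095).

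**Figure D2:**
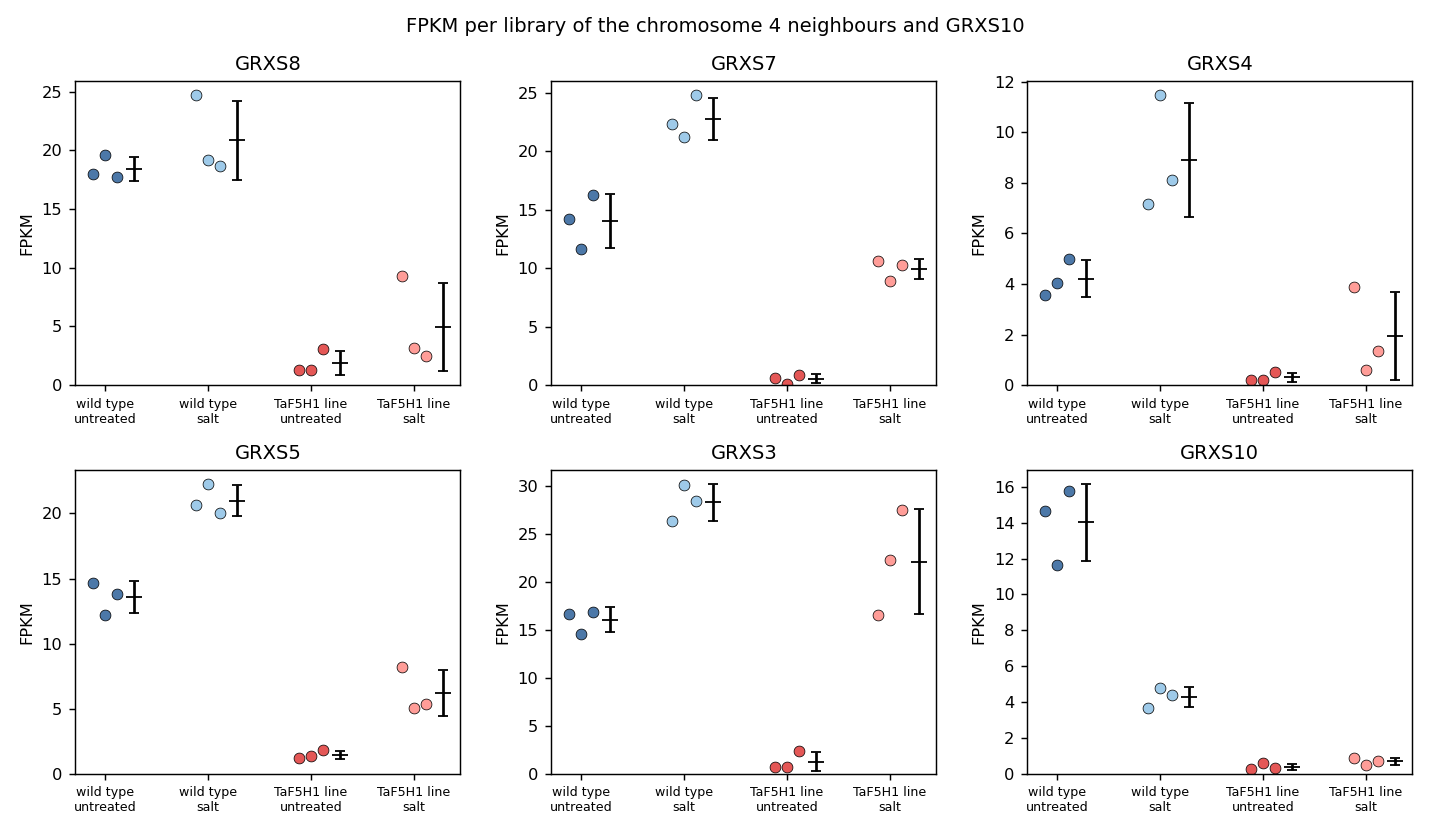
FPKM of the 5 chromosome 4 neighbours and GRXS10 in each of the 12 libraries (y axis, linear, own scale per gene; x axis, group), with the mean and standard deviation of 3 libraries beside the points. In the salt-treated line GRXS3 reaches 16.6 to 27.6 FPKM while GRXS10 stays at or under 0.87.

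Under salt the line had lower levels than wild type in much of the CC-type class. This comparison shares the salt-treated wild type with the one above. In it 12 members were lower, 1 was higher and 11 were not called, against 19.0% lower, 15.6% higher and 34.6% called among all genes. Of the 17 CC-type genes tested 10 were lower and 1 was higher, with a median log2 difference of -1.19. Of the 7 others 2 were lower, with a median of 0.08, against -0.03 for all genes. The 10 lower genes were GRXS10, GRXS6, GRXS4, GRXC11, GRXS8, GRXS9, GRXS5, GRXS7, GRXS1 and GRXC13. Among them GRXS7 and GRXS10 chose the family by their low levels in the untreated line, and GRXS4, GRXS5 and GRXS8 neighbour GRXS7. The class count and median include these genes and so are not independent of that choice. The lower genes outside this group were GRXS6, GRXC11, GRXS9, GRXS1 and GRXC13. The leaf marker sums given above were also lower in the line under salt, and their part in these differences was not tested.

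Of the neighbours, 4 were called lower and GRXS3 was not. GRXS3 was at 16.6, 22.3 and 27.6 FPKM in the salt-treated line and overlapped salt-treated wild type (-0.39 ± 0.29, edgeR adjusted p = 0.32). GRXS7 was at 10.6, 8.91 and 10.3 FPKM (-1.22 ± 0.27, edgeR adjusted p = 0.0083) and GRXS5 at 8.22, 5.06 and 5.36 (-1.78 ± 0.22, edgeR adjusted p = 0.0014). In both genes every library of the line was below every library of wild type. GRXS8 was at 9.29, 3.19 and 2.45 FPKM (-2.09 ± 0.45, edgeR adjusted p = 0.007) and GRXS4 at 3.90, 0.59 and 1.33 (-2.23 ± 0.53, edgeR adjusted p = 0.01), again with no overlap. In GRXS8, GRXS4 and GRXS5 replicate 1 was the highest of the 3, and in GRXS3 the lowest. Without it the differences were -2.92 for GRXS8 and -3.28 for GRXS4 (edgeR adjusted p = 4.9e-06 and 3.1e-05).

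The summed counts of the 5 genes were nearly level in the salt-treated line, at 651, 668 and 656, although their split was not. The sum was below that of salt-treated wild type (-1.21 ± 0.25 on the log2 scale, edgeR adjusted p = 0.0059). GRXS3 held 33.5, 55.4 and 58.7% of it in replicates 1, 2 and 3, against 25.4, 28.7 and 28.1% in salt-treated wild type. GRXS8 held 23.0, 9.7 and 6.4%, against 29.2, 22.3 and 22.6%. The share of GRXS3 was above every share it had in wild type, with replicates 2 and 3 far above, while GRXS7 held 21.8 to 22.6% against 20.6 to 24.9%. These shares assume that the authors' counting kept the 5 genes apart.

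**Figure D3:**
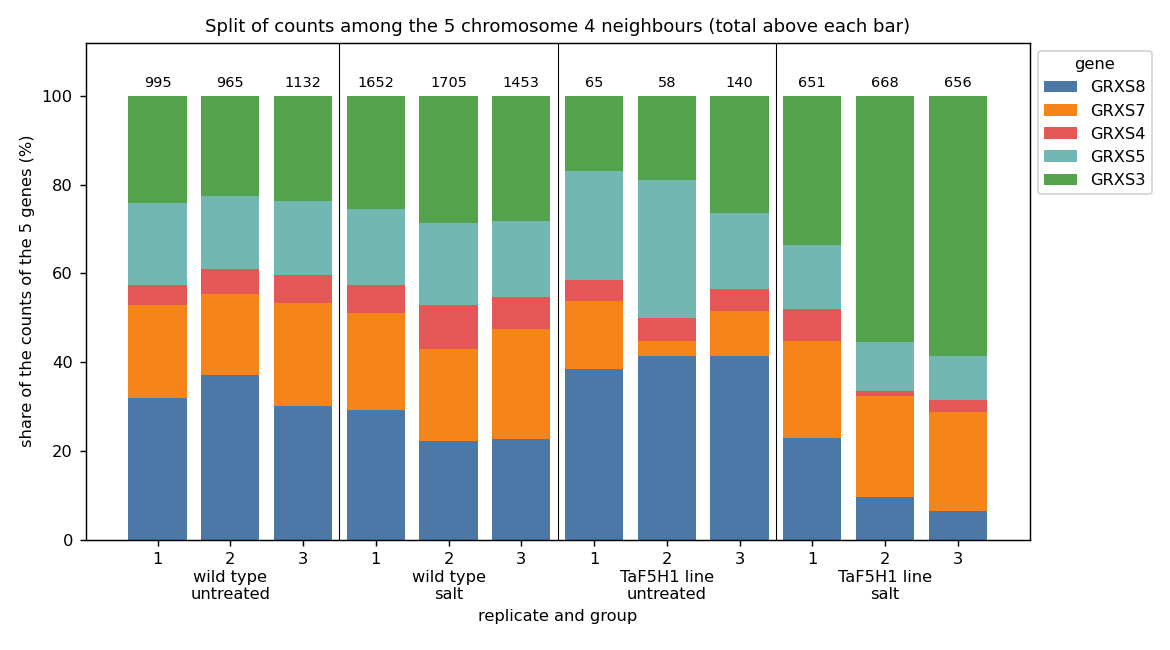
Share of the summed counts of the 5 chromosome 4 neighbours held by each gene (y axis, %) in the 12 libraries (x axis, replicates by group), with the summed count above each bar. GRXS3 takes 55.4 and 58.7% in replicates 2 and 3 of the salt-treated line, and the untreated line rests on only 58 to 140 counts per library.

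GRXS10 stayed low in the line under salt. It was at 0.87, 0.48 and 0.73 FPKM, from 10, 7 and 9 counts (-2.65 ± 0.32, edgeR adjusted p = 0.0013). GRXC11 was at 1.01, 0.75 and 1.21 FPKM (-2.17 ± 0.38, edgeR adjusted p = 0.0035). Every library of the line lay below wild type in both. GRXS6 was at 0.60, 0.10 and 0 FPKM, from 5, 1 and 0 counts (-2.56 ± 0.84, edgeR adjusted p = 0.035), and it overlapped wild type through replicate 1, without which 1 count is left. It missed the threshold without replicate 2 or 3 of either salt-treated group (highest edgeR adjusted p 0.13).

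Replicate 1 of the salt-treated line made the differences of GRXS9 and GRXS1 smaller. GRXS9 was at 10.4, 1.97 and 3.80 FPKM in the salt-treated line (-1.903 ± 0.45, edgeR adjusted p = 0.01) and at -2.84 without replicate 1 (edgeR adjusted p = 2.1e-06). GRXS1 was at 19.3, 4.74 and 7.50 FPKM (-1.19 ± 0.41, edgeR adjusted p = 0.042) and at -2.00 without it (edgeR adjusted p = 2.2e-05). In both genes replicate 1 was the closest to wild type and the other two were far below it. GRXS1 was not called when any other single library was left out (highest edgeR adjusted p 0.14). With only the 2 salt-treated groups in the fit, GRXS1, GRXS4, GRXS6, GRXS9 and GRXC5 were not called (edgeR adjusted p = 0.13, 0.061, 0.13, 0.064 and 0.11).

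GRXC6 was called higher in the line under salt. It was at 37.2, 54.1 and 54.5 FPKM against 17.02, 17.1 and 14.8 in wild type (1.54 ± 0.21, edgeR adjusted p = 0.0017), with no overlap. GRXS11 was low in both salt-treated groups, at 1.38, 0.84 and 0.90 FPKM in the line (-0.53 ± 0.29, edgeR adjusted p = 0.17). GRXC9, also known as GRX480, a salicylate-induced gene whose protein binds TGA factors, had the highest level of any CC-type gene there, at 29.4, 84.01 and 99.3 FPKM against 42.2, 48.9 and 39.4 (0.66 ± 0.32, edgeR adjusted p = 0.13). Replicate 1 lay below wild type and the other two above it, and without replicate 1 GRXC9 was called (1.03 ± 0.16, edgeR adjusted p = 0.00016), as were the CPYC-type genes GRXC4 (0.56 ± 0.14, edgeR adjusted p = 0.004) and GRXC1 (0.54 ± 0.17, edgeR adjusted p = 0.017). GRXC4 was at 0.42 ± 0.16 with all libraries (edgeR adjusted p = 0.06), and median-of-ratios scaling and DESeq2 called it (adjusted p = 0.043 and 0.027). GRXC13 was lower in the line (-0.79 ± 0.16, edgeR adjusted p = 0.0054). Outside the CC-type class, GRXS14 was lower (-0.73 ± 0.17, edgeR adjusted p = 0.0096), as was the chloroplast gene GRXC5 (-0.69 ± 0.24, edgeR adjusted p = 0.046). GRXC5 was not called in most leave-outs of 1 library (highest edgeR adjusted p 0.17). GRXC5 was at -1.03 ± 0.19 without replicate 1 of the salt-treated line (edgeR adjusted p = 0.00044).

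**Figure D4:**
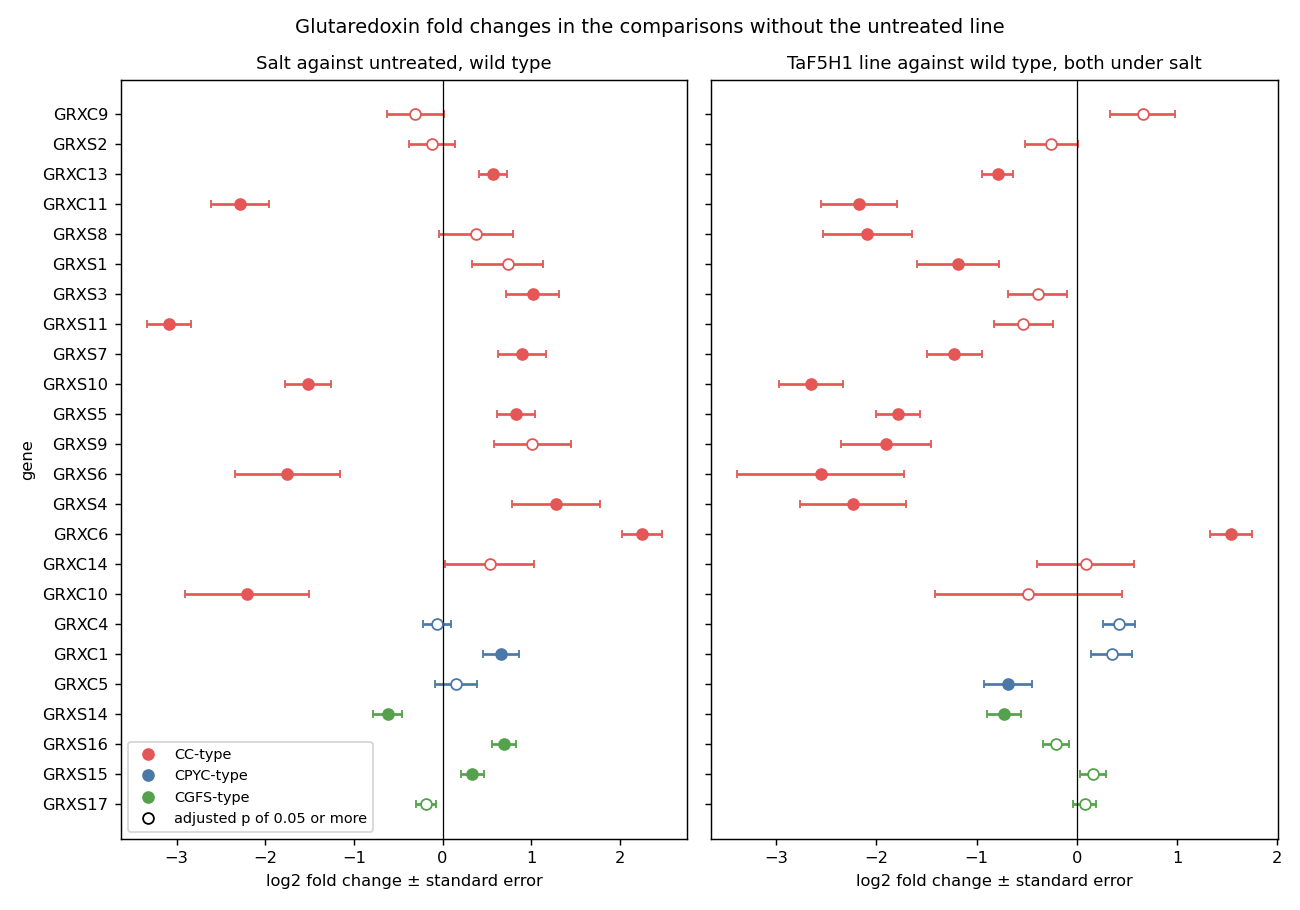
Log2 fold changes (x axis, points) with standard errors (bars) for the 24 glutaredoxin genes that passed the filter (y axis, by class), for salt in wild type on the left and the line against wild type under salt on the right. Filled points passed an edgeR adjusted p of 0.05. On the right 10 CC-type genes are filled below 0 and only GRXC6 above, with GRXS14 and GRXC5 the 2 filled points of the other classes.

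The response of the line to salt started from other levels. In the 6 genes that chose the family or neighbour its choice, the log2 values were 4.41 ± 0.36 for GRXS7, 4.37 ± 0.37 for GRXS3, 2.87 ± 0.69 for GRXS4, 2.36 ± 0.25 for GRXS5, 1.67 ± 0.49 for GRXS8 and 1.04 ± 0.40 for GRXS10, with no test. Their differences from the wild-type response were 3.52 ± 0.46, 3.35 ± 0.47, 1.59 ± 0.85, 1.54 ± 0.33, 1.29 ± 0.64 and 2.56 ± 0.47 in the same order, also untested. For GRXS10 this set a low untreated level of 4 to 8 counts beside 7 to 10 counts under salt, which overlap.

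Of the 18 other members that passed the filter, 3 rose with salt in the line, 6 fell and 9 were not called, against 31.4% up, 33.5% down and 64.8% called among all genes. The 6 include GRXC10, which passed the filter through its level in the untreated line and so had to differ, and nothing is read from its call. GRXC6 rose from 16.1, 15.3 and 12.3 FPKM (1.99 ± 0.21, edgeR adjusted p = 9.6e-06). GRXS11 fell from 13.1, 15.3 and 13.9 (-3.50 ± 0.27, edgeR adjusted p = 7.7e-07). Both genes moved the way they did in wild type. GRXC11 fell from 2.23, 5.41 and 6.71 FPKM (-2.02 ± 0.38, edgeR adjusted p = 0.00065) and GRXS6 from 1.53, 2.13 and 1.54 (-2.65 ± 0.82, edgeR adjusted p = 0.014). The GRXS6 value rests on 6 counts under salt, and GRXS6 was not called without replicate 2 of that group (edgeR adjusted p = 0.057). GRXS9 had been at 2.64, 3.93 and 2.29 FPKM (1.13 ± 0.47, edgeR adjusted p = 0.053), and without replicate 1 of the salt-treated line its value was 0.21. GRXS1 had been at 9.05, 13.4 and 11.8 FPKM (0.15 ± 0.41, edgeR adjusted p = 0.77), and without that library it turned to -0.65 ± 0.25 (edgeR adjusted p = 0.033).

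The other calls of this comparison were GRXS14, GRXC14, GRXC10, GRXS2 and GRXC4. GRXC14, known as CEPDL1, went from a mean of 6.89 ± 3.13 FPKM to 1.62 ± 0.439 (-1.83 ± 0.46, edgeR adjusted p = 0.0042). GRXC10 went from 4.09 ± 0.157 to 0.14 ± 0.136 FPKM, or from 191 to 6 counts over 3 libraries, given as a description with no test. Neither was called against wild type under salt (edgeR adjusted p = 0.9 for GRXC14 and 0.71 for GRXC10). GRXS2 rose from 24.02 ± 10.6 to 38.6 ± 5.59 FPKM (0.94 ± 0.26, edgeR adjusted p = 0.0081), with 1 overlap between the groups, since replicate 3 of the untreated line was above replicate 1 under salt. GRXC4 rose by 0.41 ± 0.16 (edgeR adjusted p = 0.039), but not with library totals alone (edgeR adjusted p = 0.44), nor without replicate 1 or 3 of the untreated line or replicate 2 or 3 of the salt-treated line (highest edgeR adjusted p 0.14).

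GRXS14 was the only member of the 18 tested whose salt response was called different between the genotypes. Its protein holds an iron-sulphur cluster in the chloroplast. The called share of 5.6% is near the 5.88% among all genes (2.92% up and 2.95% down). GRXS14 went from 61.03, 47.6 and 51.1 to 33.2, 31.03 and 26.2 FPKM in wild type. In the line it went from 62.7, 81.05 and 62.8 to 21.5, 17.5 and 16.7. The response of the line was -1.63 ± 0.17, edgeR adjusted p = 9.3e-06, and the difference of the responses was -1.01 ± 0.24, edgeR adjusted p = 0.035. In 9 of 12 leave-outs GRXS14 was not called (highest edgeR adjusted p 0.096), while the value stayed between -0.88 and -1.15. Without replicate 1 of the salt-treated line 9 members were called in the same test, 3 up and 6 down. GRXS16, GRXS15 and GRXS17, the last a protein of cytosol and nucleus, were not called, with differences from -0.47 ± 0.19 to -0.05 ± 0.18.

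3 members were below the filter. GRXC7 (ROXY1, known from petal development) had 0 counts in all 12 libraries, which allows up to 0.174 to 0.219 FPKM, taking 3 counts as the limit. GRXC8 (ROXY2, known from anther development) was at 1.79, 0.83 and 2.66 FPKM in untreated wild type and 0, 0.47 and 0.33 under salt, and without a filter it was called lower (-2.46 ± 0.80, edgeR adjusted p = 0.025). GRXC12 was at 1.09, 0.35 and 0.27 and 2.37, 2.52 and 2.85 FPKM (2.40 ± 0.55, edgeR adjusted p = 0.0031) and at 0.79, 0.50 and 0.52 in the salt-treated line, lower than salt-treated wild type (-2.105 ± 0.55, edgeR adjusted p = 0.015).

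The 200 bases before each neighbour's annotated gene start were aligned end to end, with gaps counted as differences. Pairs were 29.4 to 59.2% identical. These values depend on where the gene starts are annotated. The end of the GRXS8 window closely resembles the start of the GRXS7 window, yet this pair had the lowest value, 29.4%. The values are therefore not set against the identity of the coding sequences. By this measure GRXS3 and GRXS5 had the highest value, 59.2%. Their last 100 bases before the annotated gene start are printed here. Both genes were low in the untreated line but differed in level in the salt-treated line. Capitals mark the 20-base run they share.
GRXS5 (TAIR10, chr4:8934196-8934295, plus strand): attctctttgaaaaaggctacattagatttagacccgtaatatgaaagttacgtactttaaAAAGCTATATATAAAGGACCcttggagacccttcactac
GRXS3 (TAIR10, chr4:8937258-8937357, plus strand): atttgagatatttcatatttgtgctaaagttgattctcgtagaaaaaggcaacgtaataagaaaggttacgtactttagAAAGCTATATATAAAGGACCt
Of 33895 upstream windows of 200 bases, the last 100 bases were searched for the run on the gene's strand. It occurred in 2, those of GRXS3 and GRXS5 themselves. Other neighbours shared longer upstream runs, of 23 bases for GRXS4 and GRXS7 and 21 bases for GRXS7 and GRXS8. The core of the TGA-binding element, TGACG or its reverse complement CGTCA, was in the 200 bases upstream of 2 of the 27 members (GRXC10 and GRXS15) and in 15.2% of all windows. A match is a description of letters, and no match in 200 bases says nothing of binding elsewhere.

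Genes around the family were read from lists chosen with earlier results of these data known. For every list the background over all genes is 27.1% up and 26.7% down with salt in wild type, 31.4% up and 33.5% down with salt in the line, and 15.6% higher and 19.0% lower in the line under salt. The median log2 fold changes of all genes were -0.02, -0.05 and -0.03 in that order. The lists are short, and nothing particular to a list is read from its counts. Of 7 TGA factor genes tested 3 rose with salt in wild type, 5 were higher in the line under salt and 4 rose with salt in the line, with none lower. The medians of the list were 0.29, 0.76 and 0.32. TGA7 was the most different between the genotypes under salt, at 13.01 ± 2.12 and 51.5 ± 19.7 FPKM (1.94 ± 0.25, edgeR adjusted p = 0.0016). TGA5 (1.04 ± 0.19, edgeR adjusted p = 0.0036) and TGA3 (0.91 ± 0.19, edgeR adjusted p = 0.0061) were higher in the line too. TGA1, whose protein acts in nitrate and defence responses, rose from 8.99 ± 1.36 to 18.5 ± 0.587 FPKM with salt in wild type (1.24 ± 0.18, edgeR adjusted p = 0.00015), as did TGA7 (1.17 ± 0.25, edgeR adjusted p = 0.002) and TGA5 (0.60 ± 0.19, edgeR adjusted p = 0.019). In the line the same 3 genes had the smallest adjusted p, with TGA1 at 1.86 ± 0.19 (edgeR adjusted p = 6.2e-06), TGA5 at 1.15 ± 0.19 (edgeR adjusted p = 0.00022) and TGA7 at 1.48 ± 0.24 (edgeR adjusted p = 0.00026).

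Of 4 genes of glutathione synthesis and reduction tested, 2 rose and 1 fell with salt in wild type and 1 rose and 2 fell in the line, when 53.8% and 64.8% of all genes were called. None was called between the genotypes under salt, where the smallest edgeR adjusted p was 0.056 (GSH2, -0.29 ± 0.11). GR1, the cytosolic and peroxisomal glutathione reductase that recycles the glutathione used by glutaredoxins, rose from 33.95 ± 1.19 to 144 ± 3.04 FPKM in wild type (2.29 ± 0.21, edgeR adjusted p = 3.6e-06) and from 44.6 ± 12.3 to 185 ± 23.2 in the line (2.31 ± 0.21, edgeR adjusted p = 2.6e-06). The organellar GR2 rose in wild type (0.64 ± 0.22, edgeR adjusted p = 0.025). GSH2, the glutathione synthetase, fell in both (-0.36 ± 0.11, edgeR adjusted p = 0.013 in wild type and -0.69 ± 0.11, edgeR adjusted p = 0.00016 in the line), and GSH1, which makes gamma-glutamylcysteine, fell in the line (-0.48 ± 0.14, edgeR adjusted p = 0.0093).

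The h-type thioredoxins and their reductases, a parallel disulphide reductase system, had no member called lower in any of the 3 comparisons. Of 9 tested 6 rose in wild type, 7 rose in the line, and 4 were higher in the line under salt, against 27.1, 31.4 and 15.6% of all genes. The list medians were 0.86, 0.66 and -0.04. TRXH5, a pathogen-induced thioredoxin, went from 109 ± 15.8 to 409 ± 38.9 FPKM in wild type (2.105 ± 0.31, edgeR adjusted p = 0.00015), and it was at 884 ± 399.4 FPKM in the salt-treated line (2.095 ± 0.31, edgeR adjusted p = 0.00012 with salt and 1.07 ± 0.30, edgeR adjusted p = 0.02 against wild type). TRXH9 rose in wild type (0.86 ± 0.14, edgeR adjusted p = 0.00029). The reductase gene NTRA was higher in the line under salt (0.50 ± 0.13, edgeR adjusted p = 0.017) and rose with salt in the line (0.91 ± 0.13, edgeR adjusted p = 0.00012). TRXH8 had 1 count in untreated wild type and 50 under salt (edgeR adjusted p = 0.0005), a ratio of 48.5 with a 95% counting interval of 8.3 to 1952. It was higher in the line under salt (2.30 ± 0.49, edgeR adjusted p = 0.007), where its mean was 5.22 ± 1.08 FPKM against 1.02 ± 0.550, and rose with salt in the line (4.12 ± 0.56, edgeR adjusted p = 6.5e-05).

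Of 14 nitrate-response genes tested, 3 rose and 4 fell with salt in wild type, 3 rose and 6 fell in the line, and 1 was higher and 4 lower in the line under salt, with medians of -0.12, -0.11 and -0.46. The shares called with salt in wild type are near the background of 27.1% up and 26.7% down. NPF7.3, a nitrate transporter that loads the xylem, rose in wild type from 3.14 ± 0.465 to 16.1 ± 1.23 FPKM (2.56 ± 0.24, edgeR adjusted p = 4.8e-06) and in the line to 37.04 ± 13.2 (3.41 ± 0.24, edgeR adjusted p = 5.1e-07), and it was higher in the line under salt (1.16 ± 0.22, edgeR adjusted p = 0.0045). NPF6.3, the dual-affinity nitrate transporter, fell in both genotypes (-1.64 ± 0.20, edgeR adjusted p = 3.2e-05 in wild type and -2.09 ± 0.20, edgeR adjusted p = 4.2e-06 in the line). HHO2, a nitrate-induced repressor, rose in wild type (1.00 ± 0.12, edgeR adjusted p = 2.8e-05). BT2, a nitrate-responsive scaffold protein gene, was lower in the line under salt, at 82.1 ± 12.8 against 192 ± 12.2 FPKM (-1.26 ± 0.16, edgeR adjusted p = 0.0017). LBD37, a nitrogen-responsive repressor, was lower there (-0.60 ± 0.13, edgeR adjusted p = 0.0068) and fell with salt in the line (-0.84 ± 0.13, edgeR adjusted p = 0.00014).

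The receptors of the CEP peptides, which in vascular tissue of the shoot act upstream of the CEPD-type glutaredoxins, had 1 member called lower and 1 not called in each comparison, where 26.7, 33.5 and 19.0% of all genes were lower, with medians of -0.56, -0.66 and -0.68 for salt in wild type, salt in the line and line against wild type under salt. CEPR1 fell with salt in wild type (-0.92 ± 0.21, edgeR adjusted p = 0.0032) and in the line (-0.85 ± 0.21, edgeR adjusted p = 0.0041), and CEPR2 was lower in the line under salt (-0.90 ± 0.26, edgeR adjusted p = 0.022). Of the 3 genes for BolA proteins, which pair with CGFS-type glutaredoxins, BOLA4 rose in wild type (0.60 ± 0.14, edgeR adjusted p = 0.0038) and was lower in the line under salt (-0.50 ± 0.14, edgeR adjusted p = 0.021), and BOLA1 fell with salt in the line (-1.04 ± 0.23, edgeR adjusted p = 0.0021). The medians of the BolA list were 0.48, -0.40 and -0.12 in the order named.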

How the data were processed

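Leaf RNA of 12 libraries in 4 groups of 3 was compared. For 34218 genes, 14769 of them with a symbol, the authors deposited raw, unscaled counts and FPKM values, which a recalculation from counts, exon lengths and library totals matched within 0.005. Per the submitters' processing notes, bcl2fastq 2.17.1.14, cutadapt 1.9.1, HISAT2 2.0.1 and TAIR10 were used. What counted the reads, how reads with several matches were handled and whether strand was used is not given in the sources used here. GRXC13, GRXC7, GRXS15, GRXC5 and GRXC4 overlap other loci, so their counts are uncertain.

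The deposited counts were tested in R 4.3.3 with edgeR 4.0.16 (quasi-likelihood test, 1 mean per group over all 12 libraries, TMM scaling, genes with a mean of at least 1 FPKM, Benjamini-Hochberg adjustment over 17038 genes, called at adjusted p under 0.05). The fit was tested on simulated counts with far fewer changed genes than were called with salt here. That test does not cover shifts as wide as those in these data. Standard errors are the log2 fold change over the square root of F. FPKM values are given per library or as mean ± SD (n = 3). Alternatives were limma 3.58.1, DESeq2 1.42.0, other scalings, filters and fits, and each library left out. The members, classes and lists were chosen with earlier results of these data known. Values per library are given for GRXS7, GRXS10, the chromosome 4 neighbours, and members called in salt-treated against untreated wild type or in the line against wild type under salt with at least 2-fold change and a mean of at least 5 FPKM in some group, and GRXC9, GRXS14, GRXC8 and GRXC12 were added after their values were seen. From each list the 3 called genes with the smallest adjusted p are named, or the smallest where none was called. A count of 0 was taken to allow 3 counts, and this limit and the interval given for TRXH8 cover counting error only. No replicate pair agreed within sampling noise (lowest chi-square per degree of freedom 6.2). The wheat transgene was not analysed here.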

Additional observations from a re-analysis of the deposited data

Results flagged for a closer look

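The salt response of GRXS14 differed between the genotypes in a test of the difference itself, with -1.01 on the log2 scale (edgeR adjusted p = 0.035). Its level was lower under salt in all 3 libraries of both genotypes, and the decrease was larger in the line. In 9 of 12 leave-outs of 1 library it was not called, with a highest edgeR adjusted p of 0.096. This was 1 call among the 18 members tested, or 5.6%, near the 5.88% called among all genes.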

How the results depend on the processing

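Of the members called, leaving out each library in turn kept 5 of 9 that rose and 4 of 6 that fell with salt in wild type, 1 of 1 higher and 9 of 12 lower in the line under salt, and 2 of 3 up and 5 of 6 down with salt in the line, where 1 of the 6, GRXC10, passed the filter through the untreated line. Their counts ranged from 5 to 11 and 4 to 6, from 1 to 4 and 9 to 13, and from 2 to 6 and 5 to 8, in that order, and from 0 to 3 up and 0 to 6 down for the difference between the responses. Without replicate 1 of the salt-treated line that last test called GRXC9, GRXS2 and GRXC4 up and GRXS1, GRXS16, GRXC13, GRXS14, GRXC14 and GRXC5 down. The count that rose with salt in wild type was 3 with limma on log2(FPKM + 0.1). Members higher in the line under salt numbered 2 with median-of-ratios scaling and 2 with DESeq2. Those lower numbered 7 with only the 2 groups in the fit, which has fewer samples. With as few samples, the fit of wild type alone raised the count that rose with salt to 12. Members that rose with salt in the line numbered 5 with median-of-ratios scaling, 5 with DESeq2 and 5 with no filter. For the difference between the responses DESeq2 called 1 up and 2 down, and limma on log2(FPKM + 1) called 3 down. The cause of these changes was not tested. No called value changed its sign under the alternatives run. Same-numbered replicates did not deviate together (correlations -0.259 to 0.15), which gives no sign that the numbers pair the libraries. With 3 libraries per group this check cannot exclude a pairing. With the replicate number as a block, 8 members rose and 6 fell with salt in wild type, and 1 was higher and 10 lower in the line under salt. With the block 3 rose and 6 fell with salt in the line, and the responses differed in 0 up and 1 down. Low counts limit GRXS6, GRXC10, GRXS10 and the untreated line's neighbours, which rest on 2 to 58 counts a library.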

Other observations

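Some loci that the RefSeq annotation names as glutaredoxins carry no symbol in the deposited table and were therefore outside the family as chosen. GRXS13 (AT1G03850), a CC-type gene known from defence, was at 0.78, 0.97 and 1.92 FPKM in untreated wild type, at 0.47, 0.33 and 0.37 in salt-treated wild type and at 6.11, 6.69 and 1.63 in the untreated line. In the salt-treated line it was at 0.89, 28.7 and 28.2 FPKM, so that replicate 1 lay near wild type and the other two far above. GRXC2 (AT5G40370), a CPYC-type gene, was at 96.4, 69.8 and 79.2 FPKM in untreated wild type, 122, 118 and 98.1 in salt-treated wild type, and 120.1, 134 and 106 in the untreated line. Its values with salt in the line were 96.8, 109 and 107 FPKM, which overlap those of salt-treated wild type. Further related loci without a symbol follow, and their class was not checked. AT1G77370 had means of 41.4 FPKM in untreated and 94.7 in salt-treated wild type, and 68.9 and 132 in the line. In the same order AT2G20270 had 39.45, 39.1, 34.8 and 24.5 FPKM, AT3G57070 19.2, 12.7, 9.97 and 12.7, and AT4G08280 22.2, 17.3, 23.7 and 12.3. AT5G01420 was at most 0.10. The class results above do not cover these loci.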
